A study of Homo sapiens with 2 samples.

Results

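Open chromatin was examined at 9 genes of the TGF-beta pathway: the ligand genes TGFB1, TGFB2 and INHBA, the receptor genes TGFBR1 and TGFBR2, the signal transducers SMAD2, SMAD3 and SMAD7, and the target gene TGFBI. The genes were taken by name. Every peak of the deposited ATAC-seq lists that overlapped the gene body, or lay within 50000 bp of any annotated transcript start of the gene, was assigned to it. This gave 79 of the 74757 peaks of the No gRNA library and 79 of the 75217 peaks of the All gRNA library, at 9 of 19970 coding genes.

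ATAC-seq reads open chromatin from the places where the transposase Tn5 can insert sequencing adapters. Both libraries came from SUM159, a mesenchymal cell line of the claudin-low class of triple negative breast cancer. The cells of both had been transduced with a lentiviral vector, pLV, that carries dCas9-KRAB, a cleavage-dead Cas9 joined to the KRAB repressor domain, and had been selected with puromycin. The No gRNA cells (1 library) had no targeting guide, and the All gRNA cells (1 library) also received 4 guides against the promoter of ZEB1, a transcription factor that drives mesenchymal states and binds E-boxes. The labels give cultured cell populations and no replicate cultures or separate clones. With 1 library per group there was no test of the conditions and there are no p-values, and a difference between the conditions cannot be told apart from one between these libraries.

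TGF-beta ligands are stored in the matrix in latent form and, once released, bring together a type II and a type I receptor on the cell surface. The activated type I receptor phosphorylates SMAD2 and SMAD3, which enter the nucleus with SMAD4 and act on target genes, while the inhibitory SMAD7 binds the receptor and ends the signal. In carcinoma cells the pathway is known as an inducer of epithelial-mesenchymal transition, in part through ZEB1.

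The peaks that differed most between the libraries are shown by their sequence, from 100 bases before to 100 bases after the summit on the plus strand of hg38. The 4 shared peaks are those with the largest ratio of All gRNA to No gRNA in each direction, and the other is the peak of highest −log10 q found in All gRNA only. Capitals mark a match, on either strand, to 1 of 4 motifs. The E-box that ZEB1 binds was searched as CAGGTG. The SMAD element, with its flank, was searched as CAGACA. The motif of AP-1, a factor that often works beside SMADs, was searched as TGAGTCA. The motif of the TEAD factors was searched as GGAATG. No match of one motif overlapped a match of another in the windows shown.
TGFBR2, internal start, lower in All gRNA, chr3:30631316-30631516: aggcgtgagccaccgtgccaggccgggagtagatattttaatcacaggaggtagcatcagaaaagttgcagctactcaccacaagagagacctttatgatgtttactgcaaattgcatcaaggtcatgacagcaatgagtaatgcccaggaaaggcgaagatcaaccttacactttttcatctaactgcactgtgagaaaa
TGFBI, internal start, lower in All gRNA, chr5:136058585-136058785: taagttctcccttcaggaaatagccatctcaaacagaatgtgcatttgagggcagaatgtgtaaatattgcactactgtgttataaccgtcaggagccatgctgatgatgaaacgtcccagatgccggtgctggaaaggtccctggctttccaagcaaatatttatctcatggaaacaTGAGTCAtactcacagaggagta
SMAD3, near an internal start, higher in All gRNA, chr15:67175183-67175383: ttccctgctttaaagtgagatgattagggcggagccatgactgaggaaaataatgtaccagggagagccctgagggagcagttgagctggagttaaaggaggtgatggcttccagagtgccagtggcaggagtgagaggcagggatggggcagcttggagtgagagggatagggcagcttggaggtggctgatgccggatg
TGFBR1, internal start, higher in All gRNA, chr9:99127754-99127954: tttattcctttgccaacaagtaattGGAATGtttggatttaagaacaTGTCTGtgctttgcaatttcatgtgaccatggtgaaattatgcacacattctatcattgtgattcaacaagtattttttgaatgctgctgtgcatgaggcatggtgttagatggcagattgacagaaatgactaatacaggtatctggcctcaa
TGFB2, intron, All gRNA only, chr1:218384861-218385061: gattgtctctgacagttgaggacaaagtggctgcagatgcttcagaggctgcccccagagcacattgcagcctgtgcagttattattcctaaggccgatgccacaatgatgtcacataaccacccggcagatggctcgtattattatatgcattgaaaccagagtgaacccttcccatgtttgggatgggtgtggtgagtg
The windows of the peaks in TGFBR2, SMAD3 and TGFB2 held none of the 4 motifs, and no window of the 5 held CAGGTG. The TGFBI window held an AP-1 match 78 bases after the summit. The TGFBR1 window held a TEAD match 75 bases and a SMAD element 53 bases before it.

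Several terms recur. The summit pileup is the number of read ends stacked at the top of a peak, recovered as a whole number from the deposited fold and −log10 p. The fold is the enrichment over the local background, and −log10 q is the strength of the call corrected for the number of places tested. Pileups were compared after scaling by depth, since the lowest background put the All gRNA library at 0.743 times the depth of the No gRNA library. Each ratio of All gRNA to No gRNA has an exact 95% interval in parentheses, which covers counting error only, and ends of one fragment can be counted together, so the true uncertainty is wider. The recovered median pileup over a whole list was 20 in No gRNA and 14 in All gRNA, and a peak needed a pileup of at least 5 and 4 at the lowest background to be called. A peak is called promoter when it overlaps 4000 bp either side of any annotated transcript start of its gene, and distal otherwise. In the sets over all coding genes, a distal peak lies outside the promoters of every coding gene. The main start is that of the canonical transcript. The strongest peak of a kind is the one with the highest −log10 q.

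In the library check, the main ZEB1 promoter had 2 No gRNA peaks, with pileups of 25 and 27, and 0 All gRNA peaks. Of the mesenchymal markers VIM, CDH2, SPARC, FN1 and TWIST1, 5 of 5 had a peak at the main start in both libraries. Of 6 luminal epithelial markers 2 did, GATA3 and FOXA1, in both libraries, and ESR1, PGR, EPCAM and CDH1 had no peak there in either.

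The pathway loci held the same number of called peaks in both libraries at the threshold of the authors. With both lists limited to a −log10 q of 10 or more, 55 No gRNA and 41 All gRNA peaks were left, of which 17 and 2 had no overlap in the other list. The median −log10 q over a whole list was 13.7 in No gRNA and 10.1 in All gRNA, so this limit removes a larger part of the All gRNA list. The share of all peaks without overlap at this limit was not taken, so these counts do not set the pathway loci apart. Of the 79 peaks as called, 28 were promoter and 51 distal in each library. Promoter peaks covered 12935 bp in No gRNA and 11894 bp in All gRNA, and distal peaks covered 20359 bp and 18027 bp. Each of the 9 genes had at least 1 promoter peak in both libraries. This is common: of all 19970 coding genes, 15341 had a promoter peak in at least 1 library. Only in No gRNA it was found for 2.92% of the 19970 and only in All gRNA for 2.56%.

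**Figure D1:**
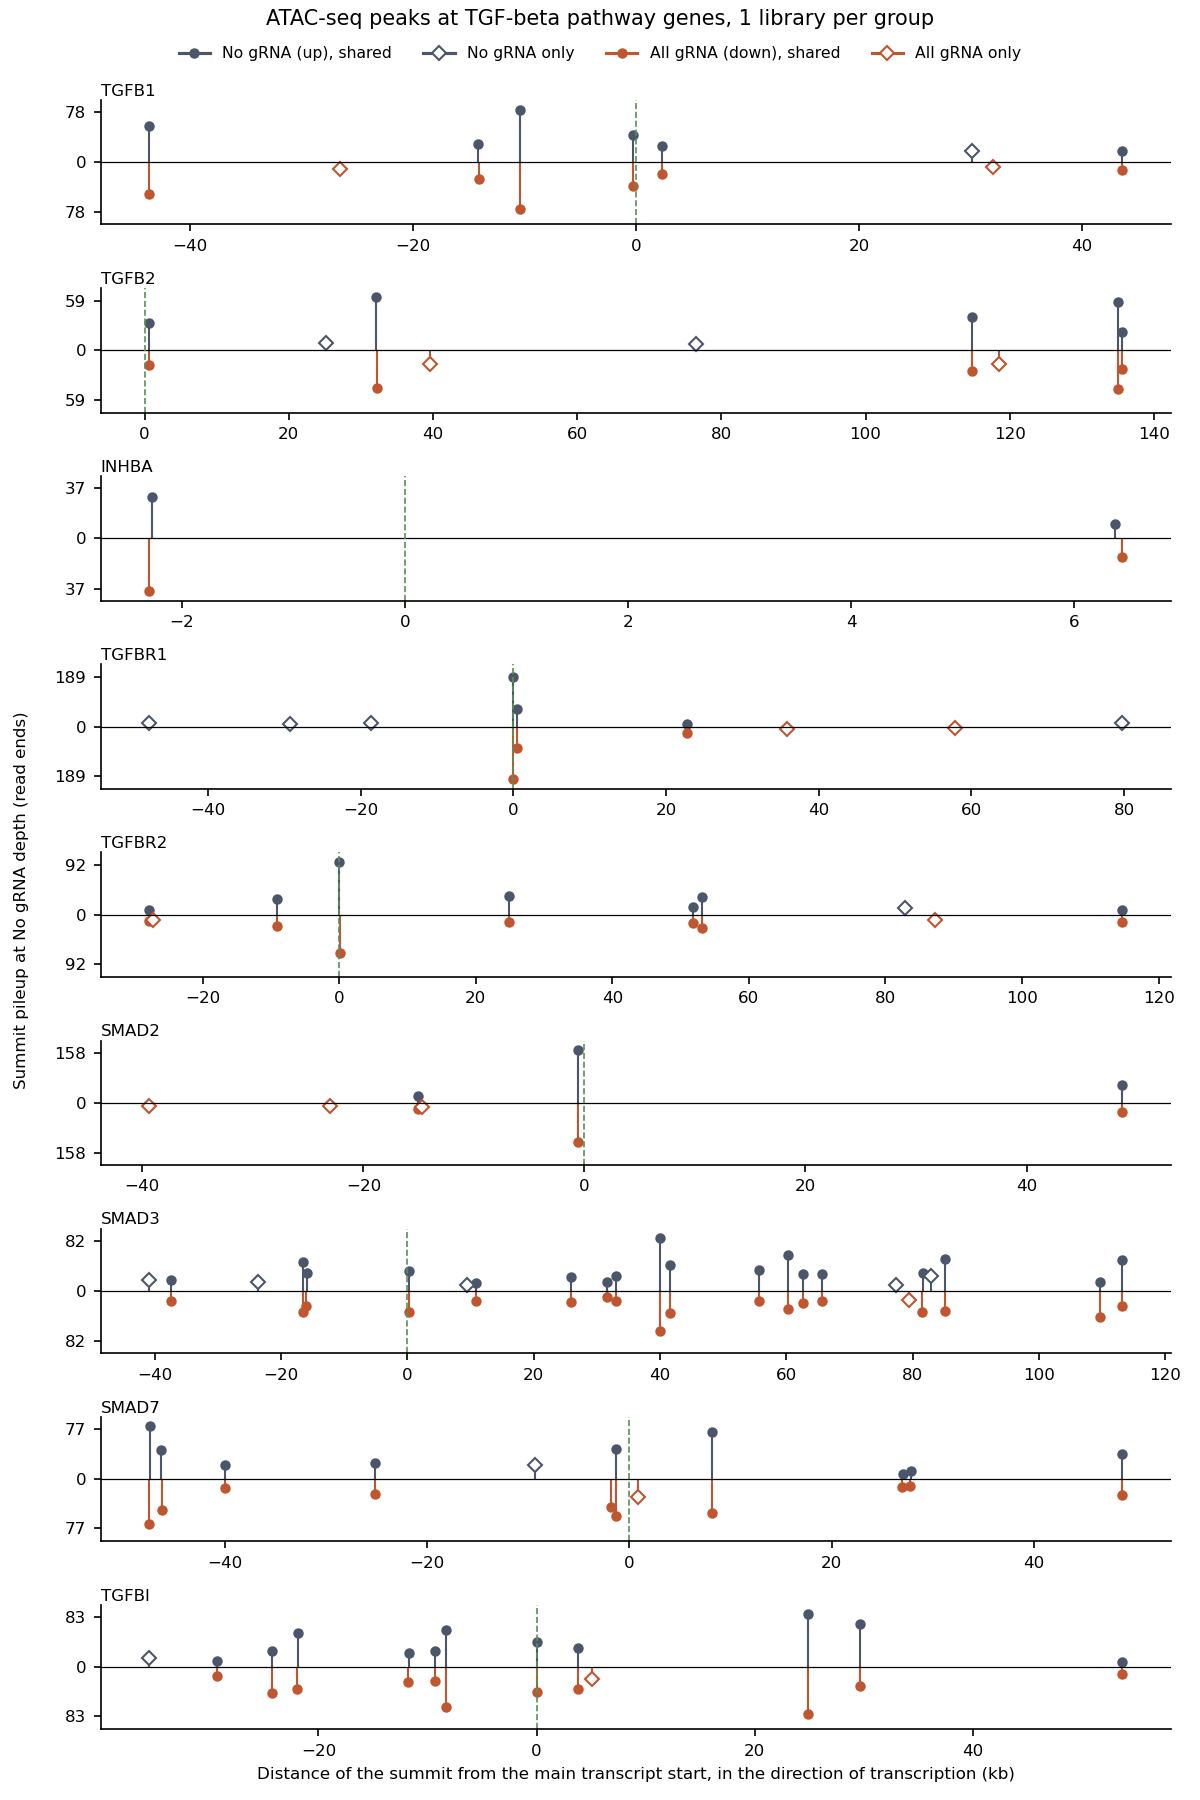
Peaks of each gene by the distance of the summit from the main transcript start, in kb and in the direction of transcription (dashed line at the start), with the height giving the summit pileup at the No gRNA depth, No gRNA upward and All gRNA downward. Filled circles are peaks that overlap a peak of the other list and open diamonds are peaks of 1 list only, which are short stems at most loci, 1 library per group and a height scale of its own for each gene.

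Peaks found in only one library, meaning with no overlap of even 1 bp in the other list, numbered 15 in No gRNA (19.0%) and 14 in All gRNA (17.7%), against 24.7% and 23.8% of all peaks on chromosomes 1 to 22 and X. Among promoter peaks they were 2 of 28 in No gRNA (7.14%) and 1 of 28 in All gRNA (3.57%). The same shares over promoter peaks of all coding genes were 17.5% and 12.5%. Among distal peaks they were 13 of 51 in each library (25.5%), against 28.3% and 28.1% of the distal peaks of coding genes. Peaks of a gene share a locus and are not independent, so these shares are descriptions. One-library peaks were weak: their pileups ran from 8 to 24 with a median of 12 in No gRNA and from 5 to 21 with a median of 8 in All gRNA, against medians over all peaks of these genes of 27 and 18. Scaled to the other library's depth, the pileups of 15 of 15 and 14 of 14 reached the call limit there. This check reuses the pileups of peaks picked for being called in 1 list only. It therefore cannot separate a difference between the libraries from counting error.

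**Figure D2:**
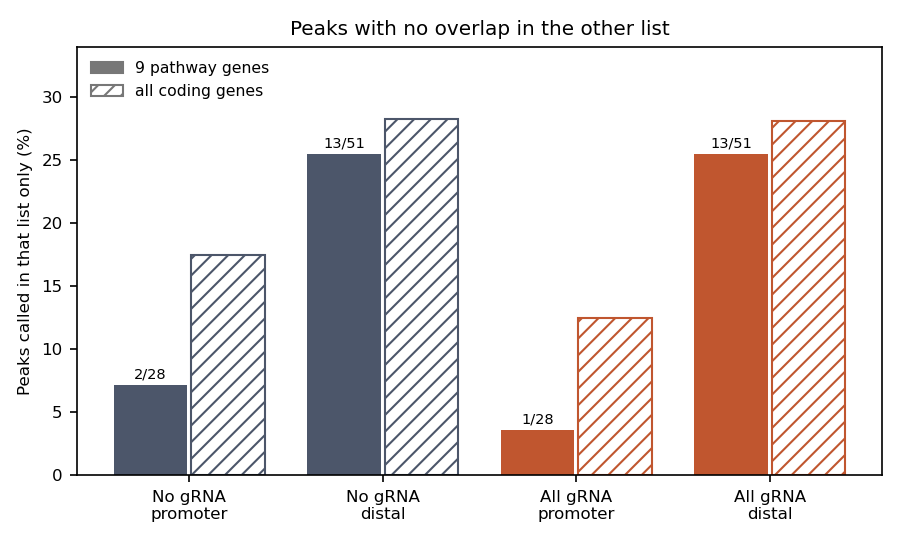
Share of peaks with no overlap in the other list, in percent, for promoter and distal peaks of each library, with solid bars for the 9 pathway genes (counts above) and hatched bars for all coding genes. The promoter bars of the pathway genes, 7.14% and 3.57%, are lower than those of all coding genes, 17.5% and 12.5%, and the distal bars lie near theirs. Hatched distal bars leave out peaks near a start of any coding gene, solid ones only peaks near a start of their own gene.

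A total of 63 peaks had exactly 1 partner in the other library and could be compared by height. Of these, 19 were higher and 44 lower in All gRNA (69.8% lower), with a median log2 ratio of −0.21. Over all 48041 pairs 58.1% were lower and the median log2 ratio was −0.11. Strong peaks had lower ratios over the whole list: from the weakest to the strongest of 5 classes of summed pileup, the medians over all pairs were 0.11, −0.01, −0.10, −0.18 and −0.24. In the same classes the pathway pairs, which numbered 8, 6, 18, 18 and 13, had medians of 0.50, −0.05, −0.30, −0.26 and −0.23. The interval of 55 of the 63 pairs included 1.

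Pairs at the main starts went both ways, and 6 of the 7 pairs past 1.5-fold with an interval that excluded 1 lay at other annotated starts inside the genes. The 11 pairs at a main start were higher in All gRNA in 5 cases and lower in 6, with ratios from 0.547 to 1.26 and a median log2 ratio of −0.01, against −0.20 for 12322 such pairs of coding genes. Only the SMAD2 interval excluded 1. The 14 promoter pairs at another start had a median log2 ratio of −0.44, with ratios from 0.396 to 2.87, against −0.13 for 4683 such pairs of coding genes. Together the 25 promoter pairs had a median log2 ratio of −0.38, against −0.19 for 17005 promoter pairs of coding genes, and the 38 distal pairs had −0.19, against −0.06 for 20702 distal pairs. At least 2-fold apart with an interval that excluded 1, 2 of 63 pairs were higher (3.17%, against 2.44% of all pairs) and 2 lower (3.17%, against 3.27%). At least 1.5-fold apart, 2 were higher (3.17%, against 3.3%) and 5 lower (7.94%, against 7.17%). Over all 63 pairs these shares lay near those of all pairs. All 4 pairs past 2-fold were promoter pairs, so 2 of 25 were higher (8%) and 2 lower (8%), against 1.13% and 2.88% of the promoter pairs of coding genes. Past 1.5-fold, 2 of the 25 were higher (8%) and 4 lower (16.0%), against 1.98% and 9.01%. The promoter pairs of coding genes lay mostly at main starts, and these called pairs were all among the 14 at another start. Of those 14, 14.3% were higher and 14.3% lower past 2-fold, against 2.07% and 3.76% of such pairs of coding genes. Past 1.5-fold, 14.3% were higher and 28.6% lower, against 2.90% and 7.64%. Of the 38 distal pairs 0 passed 2-fold in either direction, against 3% higher and 3.61% lower among the distal pairs of coding genes. The distal pathway pairs include some at starts of other coding genes, which the distal pairs of coding genes leave out. The comparison of main with other starts was chosen after these values were seen. The class at another start holds every called promoter pair, so its higher shares follow in part from that choice and are no support. Most of its 14 pairs lie in SMAD3 and share a locus. All these counts are of few pairs, and the difference from coding genes was not tested. Just outside the 2-fold line were ratios of 0.502 in SMAD3 and 0.505 in SMAD2, and just inside was the TGFBI ratio of 0.449.

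**Figure D3:**
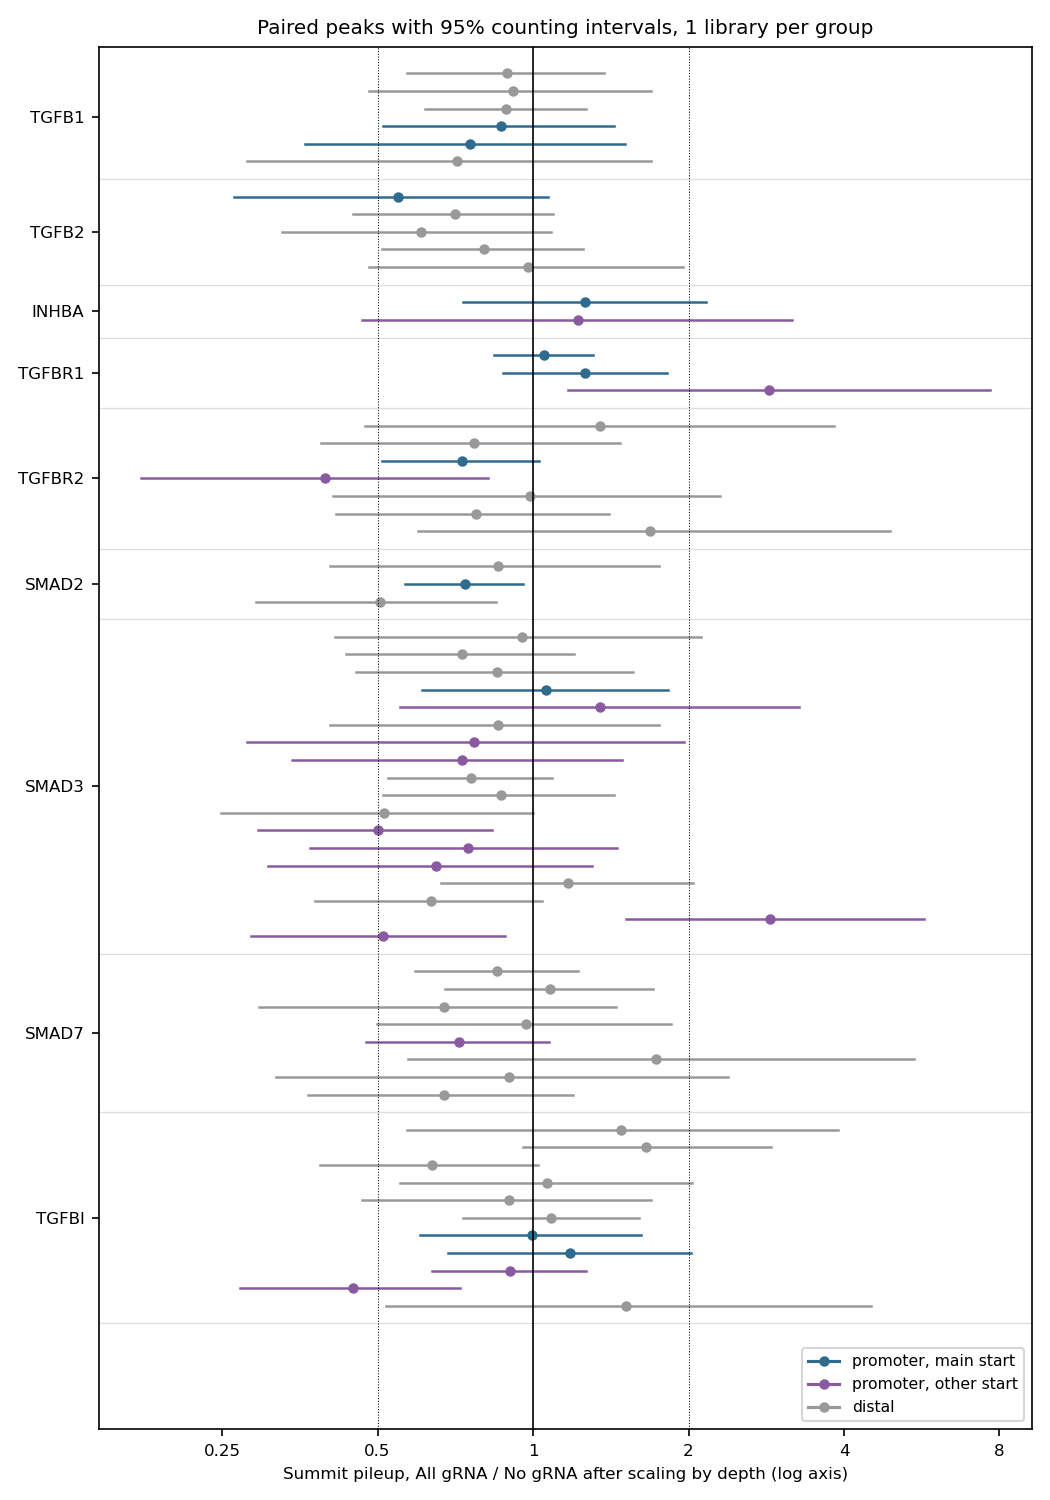
Ratio of summit pileups, All gRNA to No gRNA after scaling by depth (log axis), for the 63 paired peaks of the 9 genes in order along each gene, 1 library per group. Points are ratios and lines their 95% counting intervals, coloured by promoter at the main start, promoter at another start or distal, with dotted lines at 2-fold. The pairs past 2-fold with an interval clear of 1 are in TGFBR1, TGFBR2, SMAD3 and TGFBI, all at other annotated starts.

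Among the ligands, TGFB1 encodes the founding TGF-beta ligand. TGFB1 (ENSG00000105329.11, minus strand, chr19:41301587-41353922) had 7 No gRNA and 8 All gRNA peaks. Its main start lay within the peak at chr19:41353722-41354342, whose pileup was 42 in No gRNA and 27 in All gRNA. The ratio was 0.865 (0.513 to 1.44), and the interval included 1. This summit coincides with a start of the neighbouring gene TMEM91, and the peaks cannot be assigned to one of the genes. A second promoter peak in an intron had pileups of 25 and 14, with a ratio of 0.754 (0.362 to 1.51). The strongest distal peak, 10373 bp upstream, lay 130 bp from a start of B9D2 and had pileups of 82 and 54, with a ratio of 0.886 (0.617 to 1.26). All 6 TGFB1 pairs were lower in All gRNA, and the interval of each of the 6 included 1. Over all pairs of the lists 58.1% were lower, a share that also applies to such counts for the other genes below. The second promoter peak lay 677 bp from a start of TMEM91. Further distal pairs lay 146 bp from a start of CCDC97 and 160 bp from a start of EXOSC5. The common direction therefore cannot be assigned to TGFB1 alone. An intronic peak at chr19:41323705-41323936 was called in No gRNA only, with a pileup of 18 and a −log10 q of 12.3. In All gRNA only there were an upstream peak with a pileup of 8, of whose 32-base words 82.9% were unique, and an intronic peak with a pileup of 5.

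TGFB2 encodes a second ligand of the family. The TGFB2 gene (ENSG00000092969.12, plus strand, chr1:218345336-218444619) had 7 peaks in each library, of which 1 was a promoter peak. That peak, at chr1:218345776-218346221, lay in the first exon of the canonical transcript, 659 bp after the main start. Its pileup was 32 in the No gRNA and 13 in the All gRNA library, a ratio of 0.547 (0.263 to 1.07). This was the lowest ratio at any main start of the 9 genes, and its interval included 1. The strongest distal peak lay in an intron 32168 bp after the start, with pileups of 63 and 33 and a ratio of 0.705 (0.448 to 1.09). All 5 TGFB2 pairs were lower in All gRNA, with a median log2 ratio of −0.50 and the 5 intervals including 1. Peaks in 1 library only were intronic at 218370376 to 218370583 and 218421768 to 218421983 in No gRNA, with pileups of 9 and 8. In All gRNA they were the intronic peak at chr1:218384802-218385064 shown above and a peak beyond the gene at 218463735 to 218464045, each with a pileup of 12.

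INHBA encodes the inhibin beta A subunit, which pairs with itself to form activin A, a ligand that also signals through SMAD2 and SMAD3. INHBA (ENSG00000122641.11, minus strand, chr7:41667168-41705834) had only 2 peaks in each library, both promoter peaks and both shared. No peak lay on the main start itself. The stronger peak lay 2268 bp upstream of it, 23 bp from another annotated start, at chr7:41705178-41705539, with pileups of 31 and 29. The weaker lay 6362 bp after the main start, with pileups of 11 and 10. Their ratios were 1.26 (0.732 to 2.16) and 1.22 (0.466 to 3.17), and both intervals included 1. The stronger peak held the ZEB1 E-box CAGGTG within 100 bp of its summit in both libraries.

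TGFBR1 encodes the type I receptor kinase. TGFBR1 (ENSG00000106799.14, plus strand, chr9:99104038-99154192) had the strongest peak of all 9 loci. At its main start the peak at chr9:99104689-99105373 had pileups of 190 and 148, at the 98.8 and 99.2 percentiles of −log10 q in their lists. The ratio was 1.05 (0.840 to 1.31), and the interval included 1. A neighbouring peak 472 bp into the gene had pileups of 65 and 61 and a ratio of 1.26 (0.876 to 1.82). Another promoter peak, at chr9:99127785-99127984, lay 22813 bp after the main start and 8 bp from an internal start. The pileups were 8 in No gRNA but 17 in All gRNA, a ratio of 2.86 (1.17 to 7.66), and it is the weakest of the pairs that passed 2-fold. TGFBR1 had no shared distal peak. Its 4 distal No gRNA peaks, with pileups of 11 to 13, were called in that library only, and 2 others, with pileups of 8 and 5, in All gRNA only. The strongest of them, at chr9:99086425-99086664 in No gRNA, lay 18603 bp upstream and had a −log10 q of 10.2. It held both an E-box CAGGTG and an AP-1 match. Over the distal peaks of all coding genes, 28.3% in No gRNA and 28.1% in All gRNA had no overlap. The distal TGFBR1 peaks are few and weak, and the difference from these shares was not tested.

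TGFBR2 encodes the type II receptor kinase that binds ligand first. The TGFBR2 gene (ENSG00000163513.19, plus strand, chr3:30606601-30694142) had 8 No gRNA and 9 All gRNA peaks. Its main start carried a peak at chr3:30606289-30606911 with pileups of 98 and 53. The ratio was 0.728 (0.511 to 1.03), and the interval included 1. The lowest ratio among all 63 pairs was at chr3:30631197-30631610, in an exon of a shorter transcript, 24815 bp after the main start and 259 bp from an internal start. The pileup there was 34 in the No gRNA library against 10 in the All gRNA library, a ratio of 0.396 (0.174 to 0.819), which is −1.34 on the log2 scale. The strongest distal peak by −log10 q, 9081 bp upstream, had pileups of 28 and 16 and a ratio of 0.769 (0.389 to 1.47). An intronic distal peak 53054 bp after the main start had higher pileups, 33 and 19. One-library peaks were an intronic peak with a pileup of 12 in No gRNA and 2 peaks with pileups of 7 in All gRNA, of which 1 lay in an exon of the canonical transcript.

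Among the transducers, SMAD2 is one of the receptor-activated SMADs. SMAD2 (ENSG00000175387.16, minus strand, chr18:47808957-47931146) had 3 No gRNA and 6 All gRNA peaks. The main promoter peak, chr18:47930483-47931740, was the second highest of all 9 loci, with pileups of 168 and 92. Its ratio of 0.737 (0.565 to 0.956) had an interval below 1 but was under 1.5-fold. An intronic distal peak at chr18:47881702-47882279, 48678 bp after the main start, had pileups of 56 and 21. That is a ratio of 0.505 (0.290 to 0.847), and 84.7% of the 32-base words around its summit were unique. The remaining pair, upstream, had pileups of 22 and 14. All 3 pairs were lower in All gRNA. All 3 one-library peaks of SMAD2 were upstream peaks of All gRNA, with pileups of 11, 8 and 8. The strongest of these, at chr18:47945256-47945509, lay next to the shared upstream peak, whose No gRNA limits were 47945556 and 47945865.

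SMAD3, the other receptor-activated SMAD of the TGF-beta branch, had the most peaks. SMAD3 (ENSG00000166949.17, plus strand, chr15:67063763-67195173) has 18 annotated starts and held 23 No gRNA and 19 All gRNA peaks, of which 11 and 9 were promoter peaks. The main promoter peak, chr15:67065531-67066109, in the first exon of the canonical transcript, had pileups of 33 and 26 and a ratio of 1.06 (0.609 to 1.83). The interval of this pair included 1. The gene body was less even. Toward its end, the peak at chr15:67175170-67175381 had pileups of 15 and 32, with a ratio of 2.87 (1.51 to 5.70), the highest of the 63 pairs. The next peak, at chr15:67178603-67179041, went the other way, with pileups of 50 and 19 and a ratio of 0.511 (0.285 to 0.883). These summits lay 109634 and 113226 bp after the main start and 933 and 2052 bp from other annotated starts. The other SMAD3 pair past 1.5-fold, at chr15:67125637-67126198, in an exon of a shorter transcript 98 bp from its start, had pileups of 59 and 22 and a ratio of 0.502 (0.293 to 0.831). The strongest distal peak, in an intron 39989 bp after the main start, had pileups of 87 and 49 and a ratio of 0.758 (0.523 to 1.09). Of the 18 SMAD3 pairs 14 were lower in All gRNA. SMAD3 also had 5 one-library peaks among its 23 in No gRNA and 1 among its 19 in All gRNA. Over all peaks on chromosomes 1 to 22 and X the one-library shares were 24.7% and 23.8%. The strongest of the 5 by −log10 q were upstream at chr15:67024463-67024896 and chr15:67041732-67042169, with pileups of 18 and 15.

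SMAD7 encodes the inhibitory SMAD and is itself a target of the pathway. SMAD7 (ENSG00000101665.10, minus strand, chr18:48919853-48950965) was the gene whose main promoter had differently shaped peaks. In No gRNA a single peak of 1032 bp, chr18:48951929-48952960, had a pileup of 46. In All gRNA the same stretch held separate peaks at 48951981 to 48952500 and 48952657 to 48952953, with pileups of 43 and 33, so no pair was formed. An All gRNA only peak at chr18:48949995-48950284, in an exon of the canonical transcript 868 bp after the main start, had a pileup of 21 and a −log10 q of 7.81. It was the only promoter peak of All gRNA with no overlap in No gRNA. The internal promoter peak at chr18:48942519-48943217, 2 bp from an annotated start, had pileups of 73 and 39 and a ratio of 0.719 (0.474 to 1.07). The strongest distal peak, 47438 bp upstream, had pileups of 82 and 52 and a ratio of 0.853 (0.591 to 1.22). The No gRNA only peak at chr18:48960228-48960472, with the highest −log10 q of the one-library peaks, 13.4, and a pileup of 21, lay in repeated sequence: 45.3% of the 32-base words around its summit occurred once on chromosomes 1 to 22 and X. What this adds to the call was not tested.

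TGFBI, which encodes a secreted matrix protein and takes its name from its induction by TGF-beta, stood for the targets. TGFBI (ENSG00000120708.17, plus strand, chr5:136028988-136063818) had 12 peaks in each library. At its main start, chr5:136028853-136029196, the pileups were 42 and 31 and the ratio 0.993 (0.604 to 1.62). A promoter peak 3814 bp into the gene had pileups of 32 and 28 and a ratio of 1.18 (0.683 to 2.02). Both intervals included 1. The peaks at internal starts had unlike ratios. At one such start the strongest TGFBI peak, chr5:136053639-136054039, had pileups of 88 and 59 and a ratio of 0.902 (0.637 to 1.27). At another, chr5:136058439-136058992, 82 bp from its start, the pileup was 72 in the No gRNA and 24 in the All gRNA library, a ratio of 0.449 (0.270 to 0.721). The strongest distal peak, 8329 bp upstream, had pileups of 62 and 50 and a ratio of 1.09 (0.732 to 1.60). TGFBI had 6 pairs higher and 5 lower in All gRNA. One-library peaks were upstream in No gRNA and in the first part of the gene in All gRNA, each with a pileup of 15.

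Motif matches at the pathway peaks were compared with those at all peaks of the same list, and the SMAD element lay furthest below its share in all peaks, in both libraries. Within 100 bp of the summit the E-box CAGGTG was found in 9 of 79 peaks of No gRNA (11.4%) and in 8 of 79 of All gRNA (10.1%), against 11.6% and 13.1% of all peaks. The SMAD element CAGACA was in 9 (11.4%) and 7 (8.86%), against 14.9% in both lists. These counts are small and the gap was not tested. Of the 79 peaks, 64 in No gRNA and 65 in All gRNA were shared, so the lists are not separate observations. The AP-1 motif TGAGTCA was in 21 (26.6%) and 19 (24.1%), against 23.5% and 24.3%, and GGAATG of TEAD was in 13 in each (16.5%), against 14.6% and 14.1%. By position, AP-1 was in 17 of 51 distal peaks of No gRNA (33.3%) and 14 of 51 of All gRNA (27.5%), and in 4 (14.3%) and 5 (17.9%) of the 28 promoter peaks. Shares by position were not taken over all peaks, so this split cannot be called a trait of the pathway genes. The windows at promoters were richer in G and C, with medians of 53.5% and 56.0%, than the distal ones, with 45.8% and 47.8%. Peaks with CAGGTG in both libraries lay in INHBA, TGFBR2, SMAD7 and TGFBI.

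The wider pathway was read from 39 further genes, of which 36 had a promoter peak in both libraries. Of all 19970 coding genes, 15341 had one in at least 1 library, 2.92% of the 19970 only in No gRNA and 2.56% only in All gRNA. Receptors and coreceptors (8 of 8), SMADs (5 of 5), negative regulators such as SKI and SMURF1 (7 of 7) and targets such as CCN2 and ID1 (6 of 6) had one in both. Of 7 genes for extracellular storage and antagonists 6 did, and LRRC32 had none in either library. Of 6 further ligands 4 did, and BMP7 had none in either library. INHBB, which encodes the other common activin subunit, had a promoter peak in No gRNA only, 222 bp long with a pileup of 10. In All gRNA the promoter peaks covered fewer bp for 27 and more for 10 of the 37 genes with a peak in either library. Over coding genes with a promoter peak in either library 67.9% had fewer and 31.7% more, and the All gRNA list as a whole had shorter peaks, with a median width of 317 bp against 340 bp. At the main start, 2 genes had a pair at least 1.5-fold apart with an interval that excluded 1. The inhibitory SMAD6 had pileups of 37 and 46 at chr15:66701964-66702425, 45 bp after its start, a ratio of 1.67 (1.06 to 2.65), while another SMAD6 peak had pileups of 87 and 45 and a ratio of 0.696 (0.475 to 1.01). THBS1, whose product activates latent TGF-beta, had 37 and 44 at chr15:39580799-39581267, 45 bp before its start, a ratio of 1.60 (1.01 to 2.55). Of the 47 pairs at the main starts of the 39 genes 2 were thus higher and 0 lower by this rule, against 1.62% higher and 9.53% lower among the pairs at the main starts of coding genes.

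**Figure D4:**
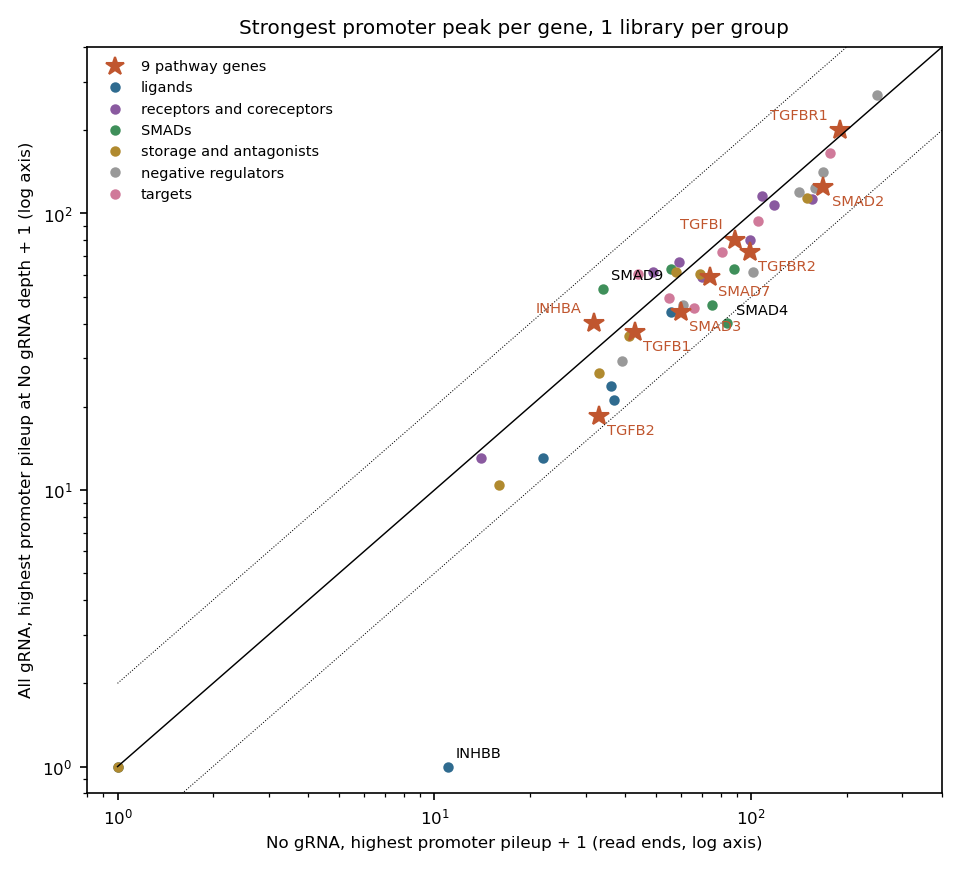
Highest promoter pileup plus 1 in No gRNA against that in All gRNA at the No gRNA depth, both on log axes, for the 9 pathway genes (stars) and 39 further genes of the pathway (points by class), 1 library per group, with a solid line at equality and dotted lines at 2-fold. All 9 stars lie within 2-fold, and INHBB lies at the bottom with no peak in All gRNA. Each library's highest peak was taken separately, so a symbol can set different peaks against each other. The SMAD3 star sets chr15:67125637-67126198 (No gRNA pileup 59) against chr15:67175110-67175409 (All gRNA pileup 32). As pairs these peaks had ratios of 0.502 and 2.87, so that star does not compare the same promoter peak. The SMAD6 point is mixed in the same way.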

How the data were processed

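Reads had been trimmed by the authors with fastp and aligned to hg38 with Bowtie2. Mitochondrial and duplicate reads and reads in excluded regions were left out before MACS2 called the peaks of each library separately, with no control. The deposited lists give a fold over background (a ratio), −log10 p and −log10 q values and a score. The authors' fold and −log10 p were solved for a whole-number pileup, found for 100% of the peaks. On 20000 simulated peaks per list 100% were recovered. Gene models were those of GENCODE release 44, and 0 peaks passed the ends of the 23 hg38 chromosomes compared. Peaks were paired by an overlap of at least 1 bp with 1 partner each. Intervals were exact conditional binomial (Clopper-Pearson).

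The genes, lists and rules were chosen with earlier results of these data known. Named peaks were those at the main starts, the strongest distal peak and up to 2 one-library peaks of each library per gene, and pairs at least 1.5-fold apart with an interval that excluded 1. Other peaks named were chosen after their values were seen, as were the comparison of main with other starts and the count of 32-base words that occur once in the genome. Alternatives were other thresholds, windows, promoter widths, overlaps and scaling. A listed target gene and a sequence are not reported here. Python 3 with numpy, scipy and pandas was used.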

Additional observations from a re-analysis of the deposited data

How the results depend on the processing

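No paired analysis was possible because there was 1 library in each group. Of 52 values under another setting, 39 stayed within 1.5 times of a count or within the limits set for a median and 13 moved. Stricter thresholds keep fewer peaks by construction. With both lists limited to a −log10 q of 10 or more, All gRNA kept 41 peaks at the 9 genes, 18 promoter and 23 distal, against 55 in No gRNA, with 2 in All gRNA only beside 17 in No gRNA only, so the near equal numbers of one-library peaks did not hold. The whole All gRNA list has the lower median −log10 q, 10.1 against 13.7, and the same count over all peaks was not taken. With only the counted list limited, to a −log10 q of 5 or more, 9 peaks were in All gRNA only. A window of 20000 bp, smaller by construction, left 29 No gRNA and 30 All gRNA distal peaks and 9 peaks in each library only. Promoters of 10000 bp held 43 peaks in each library, and the canonical start alone held 12 in No gRNA and 14 in All gRNA, again by construction.

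Scaling by the median ratio of all pairs in place of depth raised each log2 ratio by 0.11. Then 24 of the 63 pairs were higher and 39 lower, with 2 and 2 past 2-fold and 3 and 5 past 1.5-fold. The 7 pairs named for a ratio past 1.5-fold kept intervals that excluded 1. The depth limits what could be seen: 55 of 63 intervals included 1, which does not show that the libraries were alike there.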
